A study of Mus musculus with 13 samples.

Results

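This report describes 7 receptor genes in proprioceptive sensory neurons (pSNs), the dorsal root ganglion (DRG) neurons that report muscle stretch and tension. Ntrk3 (TrkC), Ntrk2 (TrkB) and Ngfr bind neurotrophins, and Ret, Gfra1, Gfra2 and Gfra3 bind ligands of the glial cell line-derived neurotrophic factor (GDNF) family. The genes were chosen by name, from the 50508 genes of the count files, and all 7 were found there.

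Single neurons were sorted by flow cytometry into plates of 96 wells, and each well was sequenced with unique molecular identifiers (UMIs), which count captured RNA molecules. Adult (over postnatal day 56), p12 and p0 pSNs came from PV:Cre+/-;Rx3:Flp+/-;Ai65+/- mice, in which tdTomato marks most cells that have expressed both Parvalbumin and Runx3, so that a few cutaneous afferents with that history can be included. Embryonic e14.5 neurons came from TrkC:tdTomato mice, whose reporter follows Ntrk3 itself. DRG came from 6 adult, 4 p12, 6 p0 and 2 e14.5 animals, and wells were sorted on tdTomato with viability dyes. There were 5 adult, 4 p12, 2 p0 and 2 e14.5 plates. The animals on each plate are not named, so the p-values measure the spread between plates.

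Of 1248 wells, the authors kept 586 neurons, 208 adult, 154 p12, 55 p0 and 169 at e14.5, after removing wells with fewer than 2000 genes and wells rich in glial genes such as Apoe. They placed the kept neurons into clusters within each stage. Plates held 915750 to 5554918 UMIs and 12 to 94 kept neurons each, and the median neuron held 10604 UMIs at e14.5, 41058 at p0, 24462.5 at p12 and 36926.5 in the adult. The same 96 well barcodes served every plate, so a barcode names a well and not a cell. Pvalb, the parvalbumin gene, averaged 606 to 639 CPM over the e14.5 plates and 1692 to 3592 CPM over the later ones. A list of 10 satellite cell and Schwann cell genes, led by Apoe, summed to 11.3 to 23.5 CPM over the e14.5 plates and to 217 to 855 CPM over the kept neurons of the later plates, so glial RNA was measured in the postnatal neurons too.

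Trk receptors are tyrosine kinases that dimerise when a neurotrophin binds. TrkC binds neurotrophin-3, on which proprioceptors depend for survival and which muscle and muscle spindles supply, and TrkB binds BDNF and neurotrophin-4. Ngfr encodes the low-affinity neurotrophin receptor, which has no kinase and works with the Trk receptors or alone. Ret is the shared kinase of the GDNF family and is engaged through a co-receptor anchored to the membrane by lipid. Gfra1 prefers GDNF, Gfra2 neurturin and Gfra3 artemin.

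On the mouse GRCm38.p6 assembly (mm10), all 7 are protein-coding genes. Ntrk3 lies on chromosome 7 at 78179986 to 78581034, Ntrk2 on chromosome 13 at 58806472 to 59133970 and Ngfr on chromosome 11 at 95568818 to 95587698. Ret lies on chromosome 6 at 118151748 to 118197744, Gfra1 on chromosome 19 at 58235581 to 58455946, Gfra2 on chromosome 14 at 70890107 to 70979840 and Gfra3 on chromosome 18. Counts are per gene, so full-length TrkB and the truncated forms that glia also make are not told apart. Below, a level is the mean over the neurons of a plate of a gene's UMIs per 1000000 UMIs of the neuron (CPM), and a change between groups is a log2 difference from edgeR fitted to UMIs summed per plate.

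Ntrk3 was detected in nearly every kept neuron at every stage, with at least 1 UMI in 160 of 169 neurons at e14.5, 55 of 55 at p0, 152 of 154 at p12 and 207 of 208 in the adult. Its plate levels were 299 and 291 CPM at e14.5 and 438 and 480 CPM at p0. Since e14.5 neurons were sorted by this gene's reporter, that step is given as a description only. The p12 plates ran from 671 and 502 CPM for replicates 1 and 2 to 353 and 269 CPM for replicates 3 and 4, while the adult plates lay between 373 and 464 CPM. The p12 range enclosed every p0 and adult plate, and neither postnatal step was called (p12 against p0 +0.17 on the log2 scale, SE 0.23, edgeR adjusted p = 0.668, and adult against p12 -0.07, SE 0.18, adjusted p = 0.832).

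Ngfr had a UMI in 104 of 169 neurons at e14.5, 52 of 55 at p0, 85 of 154 at p12 and 179 of 208 in the adult. Its level was 86.8 and 104 CPM on the e14.5 plates and 119 and 145 CPM on the p0 plates. At p12 it was 136 and 89.5 CPM for replicates 1 and 2 and 32.8 and 35.8 CPM for replicates 3 and 4, and in the adult 66.1 to 97.0 CPM. No step of Ngfr between stages was called over all plates, with p12 against p0 at -0.76 (SE 0.36, adjusted p = 0.163). The 4 p12 plates fell into a high and a low pair, and the result turned on them. With replicate 1 left out, p12 was lower than p0 by -1.17 (adjusted p = 0.0150). With replicates 1 and 2 both left out, it was lower than p0 by -1.60 (adjusted p = 0.000384) and lower than adult, whose difference was +0.90 (adjusted p = 0.00581).

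Ntrk2 was sparse in kept neurons. It averaged 0.926 and 1.47 CPM on the e14.5 plates, from 2 UMIs in all, and 2.17 and 2.34 CPM on the p0 plates. The p12 plates stood at 13.5, 5.09, 2.32 and 2.73 CPM, and the adult plates at 4.15, 11.1, 7.43, 13.7 and 4.03 CPM. Adult neurons with an Ntrk2 UMI numbered 54 of 208, but after each neuron was thinned at random to 7000 UMIs, so that depth was equal, they numbered 10. None of its 3 steps was called (adjusted p = 0.484, 0.261 and 0.516 in order of age).

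Of the GDNF family receptors, Ret, the kinase, had its lowest level at p0 and its highest in the adult, Gfra3 its highest at e14.5 and no UMI at all in the adult, and Gfra2 its highest at p0. Of the 7 receptors, all of which passed the filter on low counts, 1 was called higher at p0 than at e14.5, where 27.8% of the 11939 genes tested were called in either direction. At p12 against p0, 1 was called higher and 1 lower, with 18.1% of genes called. Adult against p12 gave 1 higher and 1 lower, with 14.1% of genes called. The median log2 difference of the 7 was +0.53, +0.17 and +0.05 in these steps, and that of all genes +0.01, +0.02 and +0.04. A plate's level combines its clusters, whose shares differ between plates, so a change per neuron and a change in the share of a cluster cannot be told apart in these steps.

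Ret levels were 9.88 and 4.99 CPM at e14.5 and 1.38 and 1.15 CPM at p0, from 4 UMIs in 3 of 55 neurons. The p12 plates stood at 21.6, 27.96, 8.05 and 5.999 CPM, all above both p0 plates, and the adult plates at 40.4, 32.5, 37.7, 56.6 and 27.1 CPM, of which only the lowest lay below the highest p12 plate. Ret was called higher at p12 than at p0 by +3.46 (SE 0.73, adjusted p = 0.00447, an 11.03-fold difference) and higher in the adult than at p12 by +1.34 (SE 0.34, adjusted p = 0.0186, 2.53-fold). The difference between p0 and e14.5 was not called (-1.84, SE 0.95, adjusted p = 0.165). The p12 call was lost without p0 replicate 1 (+3.16, adjusted p = 0.0814) and after thinning (+5.08, adjusted p = 0.150), with the difference in the same direction. The adult call was lost without p12 replicate 3 (+1.14, adjusted p = 0.0828), without p12 replicate 4 (+1.08, adjusted p = 0.0633), after thinning (+1.38, adjusted p = 0.132), and, at +0.70, with those replicates both left out (adjusted p = 0.244).

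Gfra1, the co-receptor for GDNF, stood at 3.45 and 0 CPM at e14.5, 0.827 and 0 CPM at p0, 0.955 to 7.36 CPM at p12 and 4.89 to 12.8 CPM in the adult. Neurons with a UMI were 3 of 169, 1 of 55, 17 of 154 and 57 of 208. Its postnatal differences of +3.06 (SE 1.125, adjusted p = 0.0731) and +1.08 (SE 0.49, adjusted p = 0.150) were not called. Without e14.5 replicate 1 or 2, the first was called (adjusted p = 0.0496 and 0.0421), as it was over all wells with at least 2000 genes (adjusted p = 0.00932).

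Gfra2, the neurturin co-receptor, was at 5.30 and 5.96 CPM on the e14.5 plates and at 21.4 and 17.1 CPM on the p0 plates. It then stood at 8.06, 5.07, 7.02 and 8.63 CPM on the p12 plates and at 1.77, 0.692, 0, 0.334 and 0 CPM on the adult plates. The plates of neighbouring stages did not overlap at any step. Gfra2 was called higher at p0 than at e14.5 by +1.75 (SE 0.54, adjusted p = 0.0267) and lower in the adult than at p12 by -3.71 (SE 0.51, adjusted p = 0.000440, 13.1-fold). The difference between p12 and p0 was -1.19 (SE 0.42, adjusted p = 0.0614). The p0 call did not hold with DESeq2 (adjusted p = 0.0564) or without any 1 of the p0 and e14.5 plates (adjusted p = 0.0827 to 0.147). Only 5 of 208 adult neurons held a Gfra2 UMI, against 28 of 55 at p0.

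Gfra3, the artemin co-receptor, was read mainly at the early stages. Levels were 70.7 and 42.3 CPM at e14.5, 36.2 and 25.4 CPM at p0, 0, 0, 1.82 and 4.58 CPM at p12 and 0 on every adult plate. Neurons with a UMI numbered 63 of 169, 27 of 55, 6 of 154 and 0 of 208, and the adult count of 0 allows up to 1.44% of neurons with a UMI. Such limits concern neurons with a UMI, not neurons expressing the gene. The fall from p0 to p12 was called at -3.83 (SE 0.65, adjusted p = 0.00224, 14.2-fold), and the difference between p0 and e14.5 was not (-1.10, SE 0.52, adjusted p = 0.140). Against a floor of 3 UMIs over all adult neurons (0.324 CPM), the p12 mean was at least 4.94-fold higher than the adult (1.88-fold without p12 replicate 4), the p0 mean at least 95.02-fold and the e14.5 mean at least 174-fold. The test of adult against p12 gave an adjusted p of 0.05004 and was not called, although it was with DESeq2 (adjusted p = 0.0105), with no filter on low counts (adjusted p = 0.00197), without p12 replicate 1 (adjusted p = 0.0332) and without p12 replicate 2 (adjusted p = 0.0362).

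**Figure D1:**
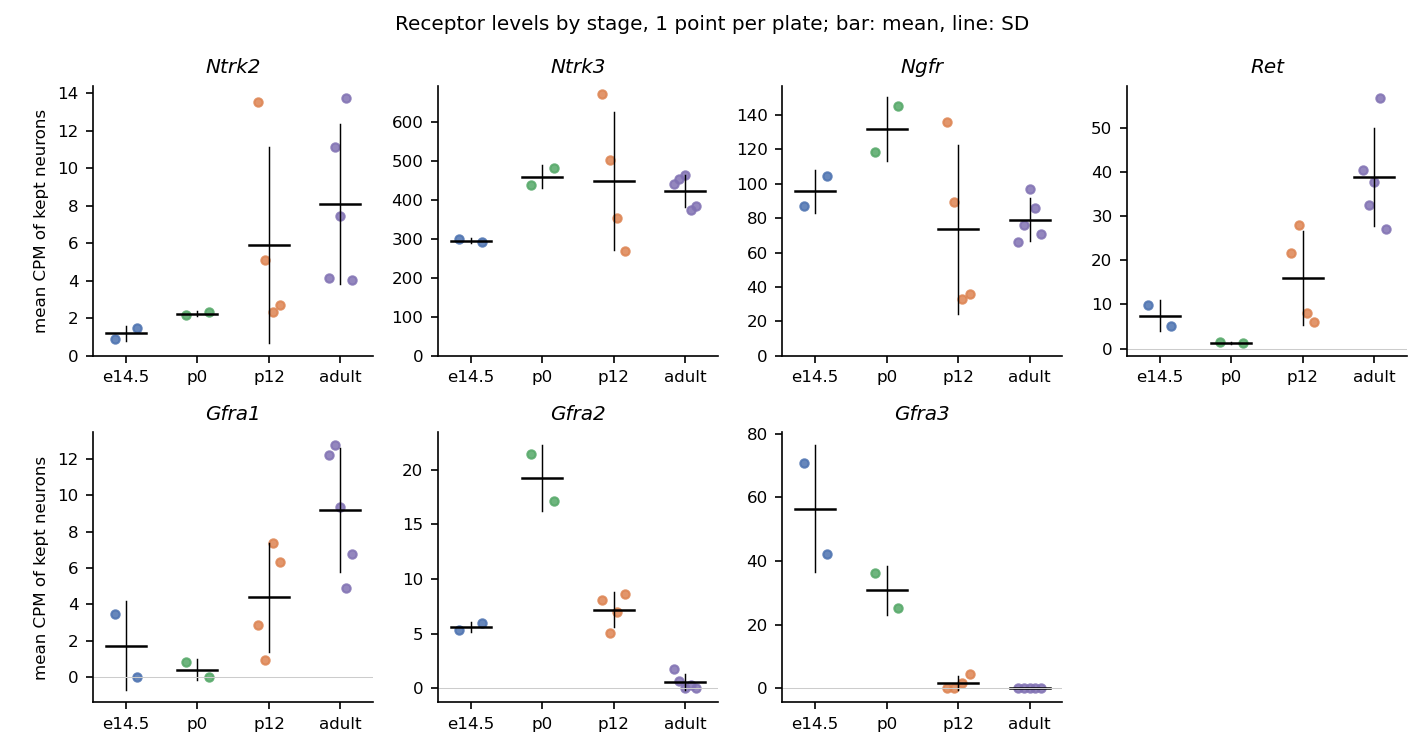
Mean CPM of the 7 receptors by stage, 1 panel per gene with stage on the x axis and its own linear y axis, each point a plate (2 at e14.5, 2 at p0, 4 at p12, 5 adult), each bar the mean of the plates and each line the SD. Gfra3 was 0 on all 5 adult plates, Gfra2 peaked on both p0 plates, and Ret was lowest on the p0 plates and highest in the adult.

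Among adult neurons, 166 fell into 5 numbered clusters and 42 were left outside them. The study placed the latter in non-proprioceptor classes or very small clusters. They are part of the adult stage levels, and without them no receptor call between stages changed. The study assigned cluster 1 to group Ia spindle afferents and cluster 5 to group Ib tendon organ afferents. Clusters 2 to 4 it assigned tentatively to group II spindle afferents. The clusters were found in these same neurons, so the tests say how far plates repeat a difference and are no independent evidence for it. Of the 5 clusters, cluster 1 had the highest mean Ntrk3, Ngfr and Ret, although the neurons outside the clusters had a mean Ret of 55.4 CPM (22.6 to 116 CPM over plates), close to that of cluster 1 (54.7 CPM). Only these 3 of the 7 receptors had enough UMIs to be tested in clusters. Clusters 1 and 5 were also the most deeply sequenced, with median UMIs of 59922 and 57694 per neuron against 20138 to 35599 in clusters 2 to 4, and the part of depth in the shares of neurons with a UMI was read from thinned neurons.

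Ntrk3 in cluster 1 was at 725, 589, 653, 550 and 616 CPM on the 5 plates, above every plate of the other adult clusters, whose means were 396 CPM in cluster 5, 393 CPM in cluster 2, 339 CPM in cluster 3 and 263 CPM in cluster 4. It was called higher in cluster 1 than in the others by +0.87 (SE 0.12, adjusted p = 3.37e-05), and higher in clusters 1 and 5 than in clusters 2 to 4 by +0.59 (SE 0.11, adjusted p = 0.00245). Without adult replicate 1, the second difference was +0.42 and not called (adjusted p = 0.143). Cluster 4 was lower by -0.63 without passing (SE 0.18, adjusted p = 0.0699), and with the replicate plate as a block the difference was -0.74 and was called (adjusted p = 0.00509). No other adult cluster call changed with the block. Cluster 4 also held the highest nociceptor sums, 169 and 215 CPM on its plates against means of 7.89 to 27.3 CPM in the other clusters, and the lowest sums of 6 proprioceptor genes, Ntrk3 among them (2428 and 2635 CPM against 3486 to 6889 CPM), and their part in its receptor levels, Gfra1 included, was not tested.

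Ngfr in cluster 1 was at 102, 106, 131, 101 and 109 CPM. The other clusters lay at 72.4 and 65.7 CPM in cluster 2, 73.5 to 107 CPM in cluster 3, 48.3 and 51.1 CPM in cluster 4 and 31.7 to 85.9 CPM in cluster 5, so that only a cluster 3 plate reached the range of cluster 1. The difference of +0.84 (SE 0.18, adjusted p = 0.00638) was called, but not without adult replicate 1 (adjusted p = 0.0585), without replicate 2 (adjusted p = 0.114) or within replicates 3 to 5 alone (adjusted p = 0.132). Clusters 1 and 5 together differed from clusters 2 to 4 by +0.44 (SE 0.19, adjusted p = 0.201).

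Ret in cluster 1 was at 65.8, 61.6, 53.5, 61.1 and 31.6 CPM and in cluster 5 at 47.5, 24.5, 40.2, 48.1 and 47.3 CPM. Cluster 2 stood at 31.2 and 27.7 CPM, cluster 4 at 20.7 and 23.7 CPM and cluster 3 at 0, 9.05, 12.4 and 21.0 CPM, the lowest of the 5. Ret was called higher in cluster 1 by +1.33 (SE 0.19, adjusted p = 0.000116) and in clusters 1 and 5 over clusters 2 to 4 by +1.36 (SE 0.21, adjusted p = 0.000321, 2.56-fold). Cluster 5 alone differed from the rest by +0.71 (SE 0.22, adjusted p = 0.0784). Cluster 3 was called lower by -1.56 (SE 0.30, adjusted p = 0.0371), and when any 1 of the adult plates was left out the difference was -1.44 to -1.72 and not called (adjusted p = 0.0751 to 0.196). Clusters 2 and 4 were found only on replicates 1 and 2, where cluster 3 had 1 and 2 neurons, so cluster 3 was compared with these clusters across plates. On replicates 3 to 5 alone, chosen after the data had been seen, which hold clusters 1, 3 and 5, cluster 3 was lower by -1.99 (adjusted p = 0.00145). On replicates 1 and 2 alone the difference was -6.73, from 1 cluster 3 sum of 2 neurons with no Ret UMI.

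In cluster 1, 3 of the 3 tested receptors were called higher beside 5.69% of the 7370 genes tested, and the median log2 difference of these receptors was +0.87 beside +0.03 for all genes. Of the other comparisons, 5.63% of genes were called in clusters 1 and 5 against 2 to 4, where 2 of 3 receptors were called higher, 0.0950% in cluster 3, where Ret was the receptor called, 2.73% in cluster 4, 4.03% in cluster 5 and 0.0271% in cluster 2, where none was. Within clusters 1 and 5, replicates 1 and 2 did not differ from replicates 3 to 5 in Ntrk3 (+0.12, SE 0.11, adjusted p = 0.532), Ngfr (+0.07, SE 0.20, adjusted p = 0.863) or Ret (+0.02, SE 0.22, adjusted p = 0.987) by the test, while 16.6% of 8528 genes did.

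The other 4 receptors were too sparse to test in the adult clusters. The mean of Gfra1 over plates was 16.3 ± 10.9 CPM (SD, n = 2) in cluster 4, 9.55 ± 9.16 CPM (n = 5) in cluster 5 and 2.19 to 4.22 CPM in clusters 1 to 3, with neighbours in this order overlapping, and 18.2 ± 10.0 CPM in the 42 neurons outside the clusters (n = 5). None of 15 cluster 2 neurons held an Ntrk2 UMI, which limits the share of neurons with a UMI to 20.0%. Ntrk2 averaged 8.78 to 18.6 CPM in the other 4 clusters. Its cluster 3 mean of 9.48 CPM was raised by replicate 2, at 28.7 CPM from 1 UMI in 2 neurons. The remaining cluster 3 plates lay at 1.58 to 4.74 CPM. Gfra2 had 5 UMIs in all among adult neurons, none in cluster 1 or 3, and Gfra3 had none in any cluster. The 5 cutaneous mechanoreceptor genes summed to 428 to 1076 CPM in cluster 1, 544 to 655 CPM in cluster 2, 232 to 388 CPM in cluster 3, 445 to 446 CPM in cluster 4 and 110 to 484 CPM in cluster 5, and their part in the receptor differences between adult clusters was not tested.

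**Figure D2:**
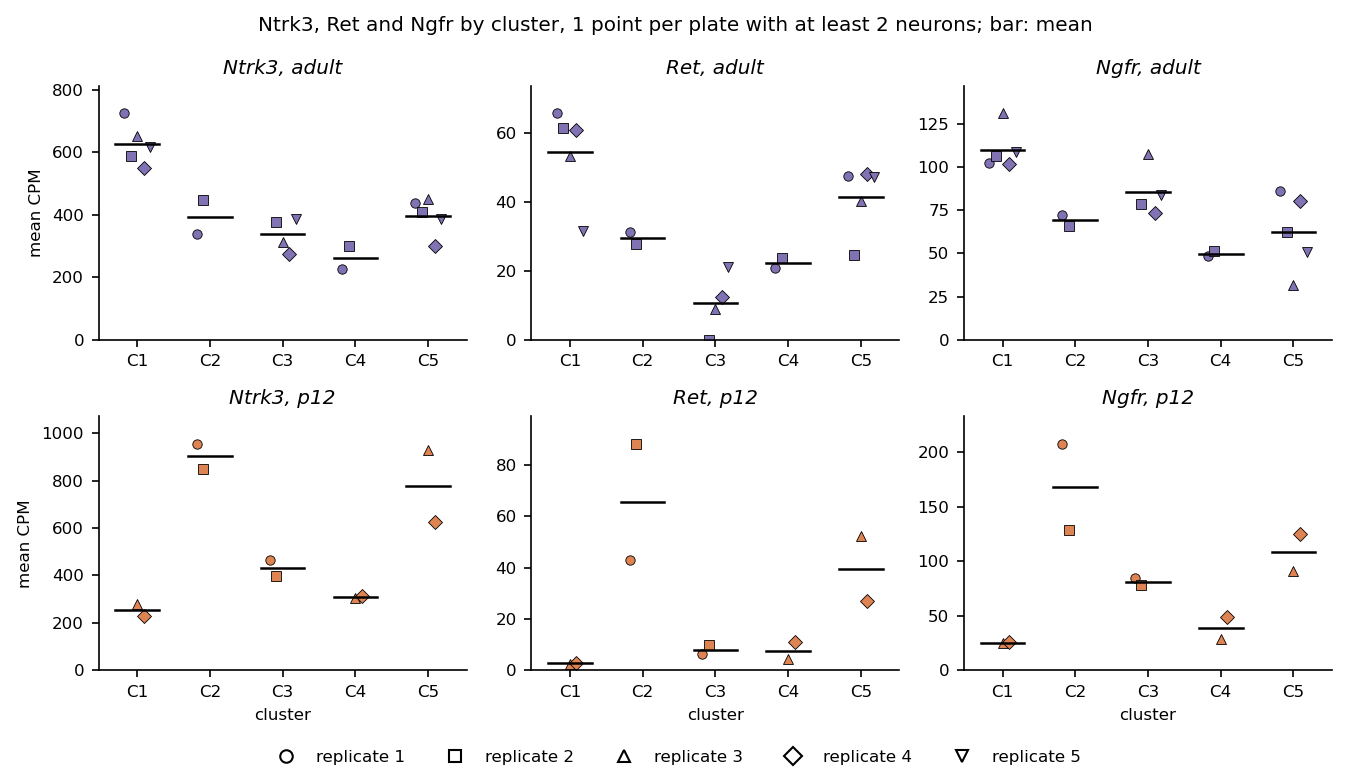
Mean CPM of Ntrk3, Ngfr and Ret in each adult and p12 cluster, with clusters on the x axis, each point a plate with at least 2 neurons of the cluster and each bar the mean of the plates, and marker shape for the replicate. All 5 Ntrk3 points of adult cluster 1 sit above every other adult point, and at p12 clusters 2 and 5 hold the highest Ntrk3 and Ret.

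At p12, clusters 2 and 5, with 8 neurons each, held the highest Ntrk3, Ngfr and Ret, and clusters 1 and 4 the lowest. Clusters 2 and 3 were found only on replicates 1 and 2 and clusters 1, 4 and 5 only on replicates 3 and 4, so that plate and cluster cannot be told apart between these sets and no replicate block could be fitted. Comparisons within a pair of plates, added after the data had been seen, are free of that overlap. Median UMIs per neuron were 74067 in cluster 2 and 46967 in cluster 3. They were 49217 in cluster 5, 16185 in cluster 1 and 29649 in cluster 4. A list of 5 cutaneous mechanoreceptor genes moved with the levels, summing to 537 to 633 CPM in cluster 2 and 311 to 394 CPM in cluster 5 against 76.4 to 214 CPM in clusters 1, 3 and 4, and the part of such afferents was not tested. The 6 proprioceptor genes, Ntrk3 among them, were also highest there, at 6382 to 6766 CPM in cluster 2 and 7832 to 8937 CPM in cluster 5 against 3749 to 4678 CPM in clusters 1, 3 and 4.

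Ntrk3 was at 958 and 849 CPM in cluster 2 and at 467 and 398 CPM in cluster 3 on the same plates. On the other pair, it was at 928 and 625 CPM in cluster 5, at 279 and 230 CPM in cluster 1 and at 306 and 315 CPM in cluster 4. Ret was at 43.1 and 88.5 CPM in cluster 2 against 6.24 and 9.81 CPM in cluster 3, and at 52.2 and 26.9 CPM in cluster 5 against 2.42 and 2.73 CPM in cluster 1 and 4.42 and 10.8 CPM in cluster 4. In both pairs the high cluster lay above the others for both genes on each plate.

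Within replicates 1 and 2, cluster 2 was above cluster 3 in Ntrk3 by +1.01 (SE 0.17, adjusted p = 0.000560) and in Ret by +2.80 (SE 0.62, adjusted p = 0.00733, 6.95-fold), with 3.91% of 6209 genes called. The Ntrk3 call was lost after thinning (+0.81, adjusted p = 0.230) and the Ret call without p12 replicate 2 (+3.05, adjusted p = 0.0948). Within replicates 3 and 4, cluster 5 was above clusters 1 and 4 in Ntrk3 by +1.51 (SE 0.16, adjusted p = 3.16e-07), in Ngfr by +1.60 (SE 0.34, adjusted p = 0.00397) and in Ret by +3.16 (SE 0.65, adjusted p = 0.00261, 8.96-fold), with 6.88% of genes called. Without p12 replicate 3, which leaves cluster 5 with 1 sum of 2 neurons, the differences were +1.02, +1.53 and +1.87 and none was called (adjusted p = 0.215, 0.481 and 0.712), and the Ngfr call was also lost after thinning (+1.26, adjusted p = 0.519). Cluster 4 against cluster 1 gave no receptor call, with 0.966% of genes called.

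Ngfr was at 208 and 128 CPM in cluster 2 and at 84.2 and 77.8 CPM in cluster 3, a difference of +0.87 that was not called (SE 0.28, adjusted p = 0.0938). It was at 90.7 and 125 CPM in cluster 5, 28.4 and 48.6 CPM in cluster 4 and 24.8 and 25.5 CPM in cluster 1.

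Tested against all other p12 clusters, and so across the plate pairs, Ntrk3, Ngfr and Ret were all called lower in cluster 1 (-1.08, -1.63 and -2.66, with 22.7% of genes called) and all higher in cluster 2 (+1.03, +1.53 and +2.62, with 21.0% called). The Ret call in cluster 1 was lost with DESeq2 (adjusted p = 0.0517) and without p12 replicate 3 or 4 (-2.50 and -2.61, adjusted p = 0.132 and 0.211), and the Ngfr call in cluster 2 without p12 replicate 1 (+1.116, adjusted p = 0.0546). In cluster 4, Ntrk3 (-0.72) and Ngfr (-1.03) were called lower, with 6.59% of genes called, and in cluster 5, Ntrk3 (+0.99) and Ret (+2.06) higher, with 5.41% called. In cluster 4, both calls were lost without p12 replicate 3 (-0.47 and -0.61, adjusted p = 0.524 and 0.682) or replicate 4 (-0.83 and -1.31, adjusted p = 0.0524 and 0.0709), and that of Ngfr also with DESeq2 (adjusted p = 0.119) and after thinning (adjusted p = 0.217). In cluster 5, both were lost without p12 replicate 3 (+0.51 and +0.97, adjusted p = 0.575 and 0.805), and that of Ret also without replicate 4 (+2.39, adjusted p = 0.0514). Cluster 3 gave no receptor call beside 12.3% of genes.

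Gfra3 at p12 was confined in these counts to cluster 1, with 7 UMIs in 6 of 63 neurons and levels of 5.55 and 6.92 CPM. The other 4 clusters had none in 91 neurons, which limits the neurons with a UMI to 5.17% in cluster 4 and to 17.6% to 37.5% in the smaller ones. The 6 nociceptor genes summed to 282 to 347 CPM in cluster 1 and to 0 to 82.8 CPM in the other clusters (Mrgprd and Prdm12 at 0 on all p12 plates), and their part in the Gfra3 difference was not tested. Gfra1 averaged 11.9 ± 6.40 CPM in cluster 1 and 1.497 to 6.05 CPM in the others (n = 2 plates each). Gfra2 averaged 4.91 to 15.5 CPM and Ntrk2 1.54 to 12.5 CPM over the 5 clusters, with the ranges of neighbouring clusters overlapping.

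Of the receptors with enough UMIs to be tested, none was called between the clusters at p0 or at e14.5, with 2 plates at each stage. At p0, Ntrk3 averaged 448 CPM in cluster 1, 489 CPM in cluster 2 and 449 CPM in cluster 3, and Ngfr 123, 194 and 80.7 CPM. In cluster 2 against clusters 1 and 3, Ntrk3 differed by +0.11 (SE 0.14, adjusted p = 0.847) and Ngfr by +0.72 (SE 0.24, adjusted p = 0.247), with 1.21% of 5061 genes called. The Gfra3 mean was 42.1 ± 2.15 CPM in cluster 1 and 2.82 ± 3.98 CPM in cluster 2 (SD, n = 2 each), where 2 of 12 neurons had a UMI against 23 of 35. In cluster 3 it was 26.1 ± 36.9 CPM, with plates at 52.3 and 0 CPM and a UMI in 2 of 8 neurons. Gfra3 counts were too low for the test. The 6 nociceptor genes summed to 130 to 176 CPM in cluster 1 against 10.4 to 13.4 CPM in cluster 2 and 82.4 to 375 CPM in cluster 3, and their part in the Gfra3 difference was not tested. Of the 6 Ntrk2 UMIs at p0, 5 came from the 8 neurons of cluster 3, in which the 10 glial genes summed to 3266 and 3319 CPM against 102 to 111 CPM in clusters 1 and 2. The part of glial RNA in that level was not tested.

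At e14.5, clusters 3 and 4, which the study describes as low in Etv1 and Parvalbumin, differed from clusters 1 and 2 by +1.00 in Ngfr (SE 0.37, adjusted p = 0.303), by -1.51 in Gfra3 (SE 0.66, adjusted p = 0.381) and by -0.06 in Ntrk3 (SE 0.22, adjusted p = 0.955), with 1.18% of 4912 genes called. None of the 3 was called in cluster 1 against cluster 2 either, where 2.65% of genes were. Gfra3 averaged 87.7 ± 46.4 CPM in cluster 1, 58.8 ± 21.4 CPM in cluster 2 and 23.8 ± 6.43 CPM in cluster 3 (n = 2 plates each). Nociceptor sums had means of 110, 102 and 20.4 CPM there, and their part in the Gfra3 levels was not tested. Over all e14.5 neurons of a plate, Tac1 made up 61.2 and 100 CPM of nociceptor sums of 62.7 and 103 CPM. Of the 6 genes, 4 were at 0 on both plates. Cutaneous sums were 436 and 585 CPM in cluster 3 against 119 to 224 CPM in clusters 1 and 2, and proprioceptor sums 703 and 767 CPM against 1968 to 2256 CPM. The study raises the possibility that clusters 3 and 4 hold afferents other than proprioceptors, Merkel cell afferents among them. Their 34 and 6 neurons are part of the e14.5 stage levels. In a stage fit with e14.5 clusters 1 and 2 only, no receptor call of p0 against e14.5 changed. In that fit Gfra1 was called higher at p12 than at p0 (+3.05, edgeR adjusted p = 0.0465).

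Over all 17 numbered clusters, the order of the levels placed Ntrk3 highest in p12 cluster 2 (903 CPM), p12 cluster 5 (777 CPM) and adult cluster 1 (627 CPM), whose ranges over plates overlapped in turn, and adult cluster 1 did not overlap the next, p0 cluster 2 (489 CPM). Adult cluster 4 (263 CPM) and p12 cluster 1 (255 CPM) came last. Ret was highest in p12 cluster 2 (65.8 CPM), adult cluster 1 (54.7 CPM), adult cluster 5 (41.5 CPM) and p12 cluster 5 (39.5 CPM), all overlapping, and was 0 in p0 cluster 3 and e14.5 cluster 4. Ngfr ran from 194 CPM in p0 cluster 2 to 25.1 CPM in p12 cluster 1, and Gfra3 from 87.7 CPM in e14.5 cluster 1 to 0 in 9 clusters, 5 of them adult and 4 at p12. Neighbours in the order of Ntrk2, Gfra1 or Gfra2 overlapped throughout.

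**Figure D3:**
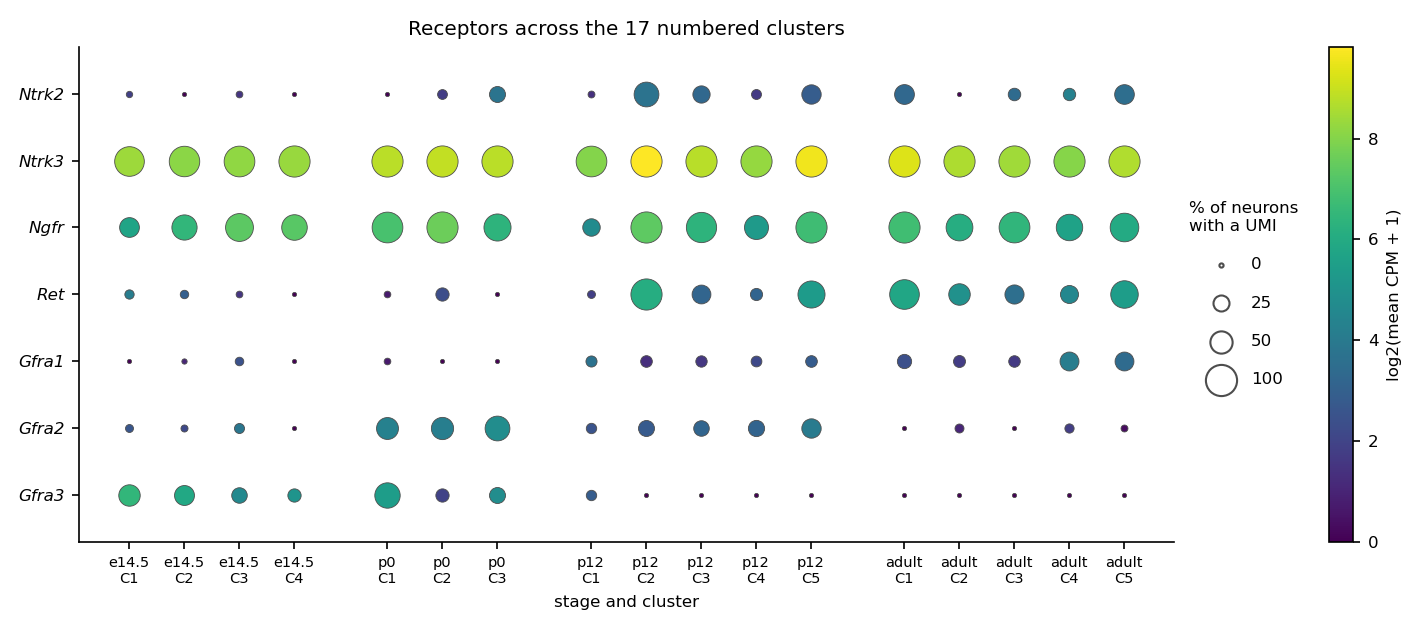
The 7 receptors (rows) in each of the 17 clusters (columns, grouped by stage), with colour for log2(mean CPM + 1) over plates and dot area for the percent of neurons with a UMI, at full depth. Gfra3 has its highest levels in e14.5 clusters 1 and 2 and p0 cluster 1 and is at 0 in the adult columns, and Ret is strongest in p12 clusters 2 and 5 and adult clusters 1 and 5.

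Joint detection asks which receptors were read together with Ntrk3 in a neuron. Since nearly all neurons had Ntrk3, a neuron with another receptor and without Ntrk3 was rare at full depth. In the adult, Ret was found with Ntrk3 in 123 neurons and without it in 1, and Ntrk3 without Ret in 84. Ngfr was found with Ntrk3 in 178 adult neurons and without it in 1. At full depth, all 3 of Ntrk3, Ngfr and Ret were read in 112 of 208 adult neurons, 26 of 154 at p12, 3 of 55 at p0 and 5 of 169 at e14.5. At an equal depth of 7000 UMIs, all 3 were read in 14 of 208 adult neurons, 4 of 152 at p12, 0 of 55 at p0 and 2 of 151 at e14.5.

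After thinning to 7000 UMIs, which left 208 adult, 152 p12, 55 p0 and 151 e14.5 neurons, Ngfr was read with Ntrk3 in 34.6% ± 7.20 of adult neurons (SD, n = 5 plates), 32.7% ± 14.1 at p12 (n = 4), 54.5% at p0 and 39.5% at e14.5. Ret was read with Ntrk3 in 16.0% ± 9.59 of adult neurons, 10.9% ± 9.46 at p12, in none of 55 at p0 (a limit of 5.45% with UMIs of both at this depth, where 3 had both at full depth), and 1.88% at e14.5. Gfra3 joined Ntrk3 in 21.3% of neurons at e14.5, 20.1% at p0, 1.61% at p12 and none in the adult. Gfra2 did so in 3.28%, 18.01%, 6.91% and 0.769%, and Gfra1 in 3.66% at p12 and 4.47% in the adult.

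For the 6 partners, adult and p12 shares were compared by a two-sided exact permutation test over plates (n = 5 and 4), adjusted over the 6. With this many plates and partners, a single partner could not reach an adjusted p under 0.05 even if its plates separated fully, so the absence of a call says nothing on whether the shares differed. None passed after thinning, the lowest p being 0.0952 for Gfra2 (adjusted p = 0.571), whose plates overlapped. The adult shares of Ntrk2 (3.27% against 0.410% at p12, exact p = 0.238), Ret (exact p = 0.413), Ngfr (exact p = 0.810), Gfra1 (exact p = 0.746) and Gfra3 (exact p = 0.333) did not pass either. At full depth, Gfra1 was read with Ntrk3 in 20.0% to 30.8% of neurons on the adult plates and 7.69% to 16.7% on the p12 plates (exact p = 0.0159, adjusted p = 0.0476). Gfra2 was read with it in 0% to 3.85% against 16.1% to 25% (exact p = 0.0159, adjusted p = 0.0476). These plates did not overlap, and 0.0159 is the value at which every adult plate lies on the same side of every p12 plate. Median UMIs per neuron were 36926.5 in the adult and 24462.5 at p12, but plate means overlapped, at 33828 to 59682 and 21753 to 65165 UMIs. After thinning, the adult and p12 shares were 0.769% and 6.91% for Gfra2 and 4.47% and 3.66% for Gfra1, with overlapping plates.

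**Figure D4:**
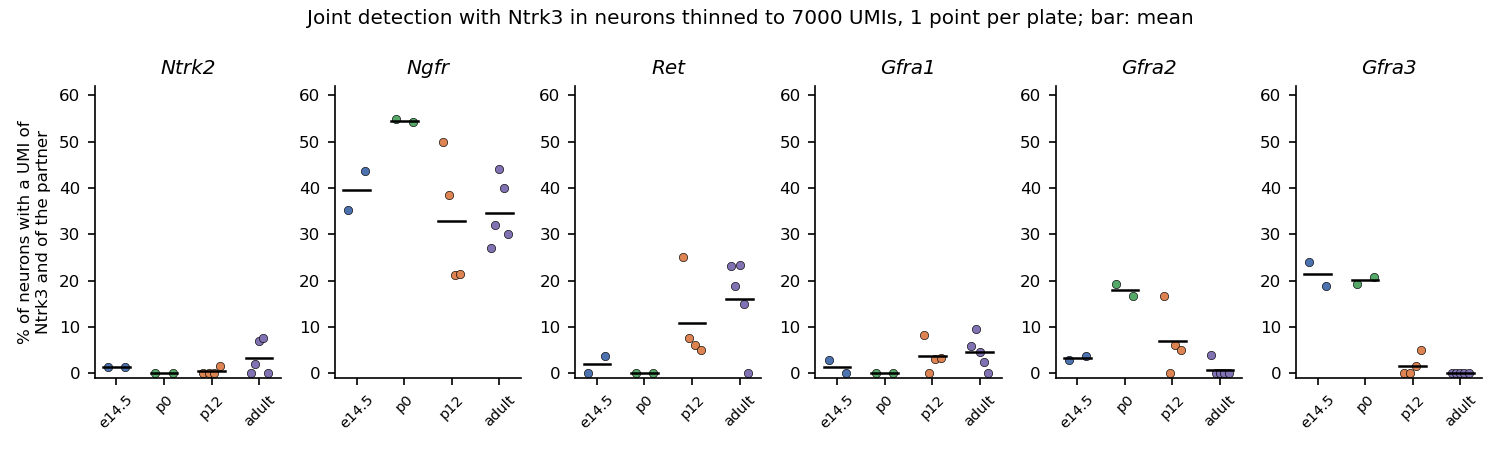
Percent of neurons in which each of 6 receptors was read together with Ntrk3, by stage, in neurons thinned to 7000 UMIs, each point a plate and each bar the mean of the plates. Gfra3 was read with Ntrk3 in 21.3% of neurons at e14.5 and in none in the adult, and Ret in none at p0 and 16.0% in the adult.

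By cluster, Ret was read with Ntrk3 at full depth in 46 of 51 neurons of adult cluster 1 and 24 of 31 of cluster 5, against 15 of 41 in cluster 3, 9 of 28 in cluster 4 and 7 of 15 in cluster 2. After thinning, the counts were 18 of 51, 5 of 31, 2 of 41, 5 of 28 and 2 of 15, so cluster 1 was highest at both depths, and the lowest share was in cluster 4 at full depth and in cluster 3 at equal depth. At p12, all 8 neurons of cluster 2 and 6 of 8 in cluster 5 held both at full depth. Those of the other clusters were 3 of 63 in cluster 1, 6 of 17 in cluster 3 and 8 of 58 in cluster 4. After thinning, the p12 counts were 2 of 8 in cluster 2 and 3 of 8 in cluster 5. They were 0 of 61 in cluster 1, 2 of 17 in cluster 3 and 4 of 58 in cluster 4. Ngfr and Ntrk3 were read together in all 51 neurons of adult cluster 1 and in 71.4% to 97.6% of those in the other clusters, whereas after thinning the shares of the 5 clusters ran from 20.0% to 36.6% and cluster 1, at 31.4%, lay inside that range.

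Adult neurons of the numbered clusters with a Ret UMI after thinning had a higher mean Ntrk3 level than those without, as a description with no test, on each of the 4 plates with at least 2 of both, at 519 against 408, 501 against 427, 588 against 381 and 415 against 366 CPM on replicates 1 to 4. Within cluster 1 alone, the values were 795 against 691, 595 against 585, 721 against 534 and 557 against 548 CPM, and in cluster 5 they were 418 against 444 and 273 against 311 CPM on the 2 plates with enough neurons. Cluster 3 had 1 such plate, at 337 against 311 CPM. The order was the same in clusters 1 and 3 and not in cluster 5, with 2 to 7 Ret neurons behind each value.

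Ret signals with a GFR alpha co-receptor, and the fourth of these, Gfra4, which prefers persephin, was read in more postnatal pSNs than the other 3. Gfra4 averaged 6.17 CPM at e14.5, 38.2 CPM at p0, 37.9 CPM at p12 and 38.6 CPM in the adult, and was called higher at p0 than at e14.5 by +2.27 (SE 0.37, adjusted p = 0.000587). Of the 124 adult neurons with Ret at full depth, 97 (78.2%) also had Gfra4, 40 (32.3%) Gfra1, 4 (3.23%) Gfra2 and none Gfra3. Of the 84 without Ret, 53 (63.1%) had Gfra4 and 17 (20.2%) Gfra1. After thinning, Gfra4 was read in 12 of 42 neurons with Ret and 50 of 166 without (28.6% and 30.1%), and Gfra1 in 5 of 42 and 9 of 166 (11.9% and 5.42%). At p0, Ret had 4 UMIs in 3 of 55 neurons and Gfra1 1 UMI in 1, whereas Gfra2 was read in 28 and Gfra3 in 27. Of 52 neurons without a Ret UMI, 44 had Gfra1, Gfra2 or Gfra3, and the 3 neurons with Ret had none of these and all had Gfra4.

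The receptors were also read in the wells that the authors left out for their satellite cell genes but that held at least 2000 genes, 242 adult, 216 p12 and 92 p0 wells. These wells carried neuronal and glial RNA together. Ntrk3 was read in 98.9% to 100% of them, and the 10 glial genes summed to 7970 to 12741 CPM over the adult plates, 6932 to 9488 CPM at p12 and 3764 to 4323 CPM at p0, of which 10, 10 and 9 genes were called higher than in kept neurons. A list of 6 nociceptor genes summed to 100 to 361 CPM in the left-out adult wells against 9.97 to 198 CPM in kept neurons, to 179 to 339 against 40.4 to 192 CPM at p12, and to 261 to 272 against 97.1 to 165 CPM at p0, where the ranges did not overlap. The part of glial or nociceptor RNA in each difference below was not tested, and the filter chose these wells by glial genes and not by the receptors.

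Ntrk2 was called higher in left-out wells than in kept neurons at all 3 stages. It averaged 68.4 ± 14.9 CPM in left-out adult wells (SD, n = 5 plates) against 8.09 ± 4.28 CPM in kept neurons, 51.6 ± 19.1 against 5.91 ± 5.21 CPM at p12 (n = 4) and 25.2 ± 2.52 against 2.26 ± 0.123 CPM at p0 (n = 2). The lowest left-out plate of a stage lay above the highest kept plate in all 3 stages. With plate as a block, the differences were +2.98 (SE 0.19, adjusted p = 2.44e-12), +2.83 (SE 0.28, adjusted p = 4.18e-08) and +3.07 (SE 0.50, adjusted p = 0.000277), or 7.91-fold, 7.10-fold and 8.41-fold, with 15.3%, 8.31% and 2.73% of 12632 genes called. The p0 call was lost without p0 replicate 1 (adjusted p = 0.0806). After thinning, an Ntrk2 UMI was read in 36.9% of left-out adult wells and 4.81% of kept adult neurons.

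Gfra2 was higher in left-out wells by +2.87 in the adult (SE 0.49, adjusted p = 9.18e-05), at 4.85 ± 4.39 against 0.559 ± 0.734 CPM, and by +1.13 at p12 (SE 0.27, adjusted p = 0.00769), at 17.6 ± 1.74 against 7.20 ± 1.57 CPM. It stood at 35.2 against 19.3 CPM at p0 without a call (+0.74, SE 0.27, adjusted p = 0.198). Gfra3 was higher at p0 by +1.19 (SE 0.32, adjusted p = 0.0455), at 60.6 against 30.8 CPM, a call lost without p0 replicate 1 (adjusted p = 0.442), p0 replicate 2 (adjusted p = 0.697) or p12 replicate 3 (adjusted p = 0.0504), or with DESeq2 (adjusted p = 0.9996). In left-out adult wells it averaged 1.95 CPM against 0, which was not called (adjusted p = 0.0565) but was with no filter on low counts (adjusted p = 0.0356) and without p12 replicate 2 or 4 (adjusted p = 0.0336 and 0.0388).

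Ngfr, Ret and Ntrk3 went the other way. Ngfr was lower in left-out wells by -0.45 in the adult (SE 0.12, adjusted p = 0.00844), -0.63 at p12 (SE 0.15, adjusted p = 0.00673) and -0.65 at p0 (SE 0.17, adjusted p = 0.0284). Ntrk3 was lower by -0.26 in the adult (SE 0.06, adjusted p = 0.00409) and -0.53 at p12 (SE 0.07, adjusted p = 1.12e-05) and was near equal at p0 (-0.05, SE 0.10, adjusted p = 0.926). Ret was lower by -0.61 (SE 0.18, adjusted p = 0.0200) and -1.01 (SE 0.30, adjusted p = 0.0346), and its p0 difference was +1.83 from few UMIs (SE 0.79, adjusted p = 0.331).

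Several of these calls were lost when a plate was left out. In the adult, the Ngfr call was lost without adult replicate 1 or 4 (adjusted p = 0.0527 and 0.0511), and at p12 without p12 replicate 1 (adjusted p = 0.218). At p0 it was lost without p0 replicate 1 or 2 (adjusted p = 0.0650 and 0.735). The adult Ret call was lost without adult replicate 1, 2 or 4 (adjusted p = 0.0598, 0.0833 and 0.155) and the p12 Ret call without p12 replicate 2, 3 or 4 (adjusted p = 0.222, 0.102 and 0.0699). Without the replicate block, only 4 of the 13 calls were made, which were those of Ntrk2 in all 3 stages and of Gfra2 in the adult. With DESeq2, 7 were made, and the calls of Ngfr in the adult (adjusted p = 0.0651) and p0 (adjusted p = 0.255), Ret in the adult (adjusted p = 0.266) and p12 (adjusted p = 0.0908) and Gfra2 at p12 (adjusted p = 0.114) were not among them. Gfra1 gave no call at any stage.

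The difference between left-out and kept wells was itself compared between stages, a test added after the data had been seen. No receptor passed. Gfra2 came nearest, with adult minus p0 at +2.13 (SE 0.57, adjusted p = 0.0696, 1.16% of genes called), and Ret differed by -2.84 in p12 minus p0 (SE 0.83, adjusted p = 0.251, 0.253% called). For adult minus p12, 0.309% of genes were called.

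**Figure D5:**
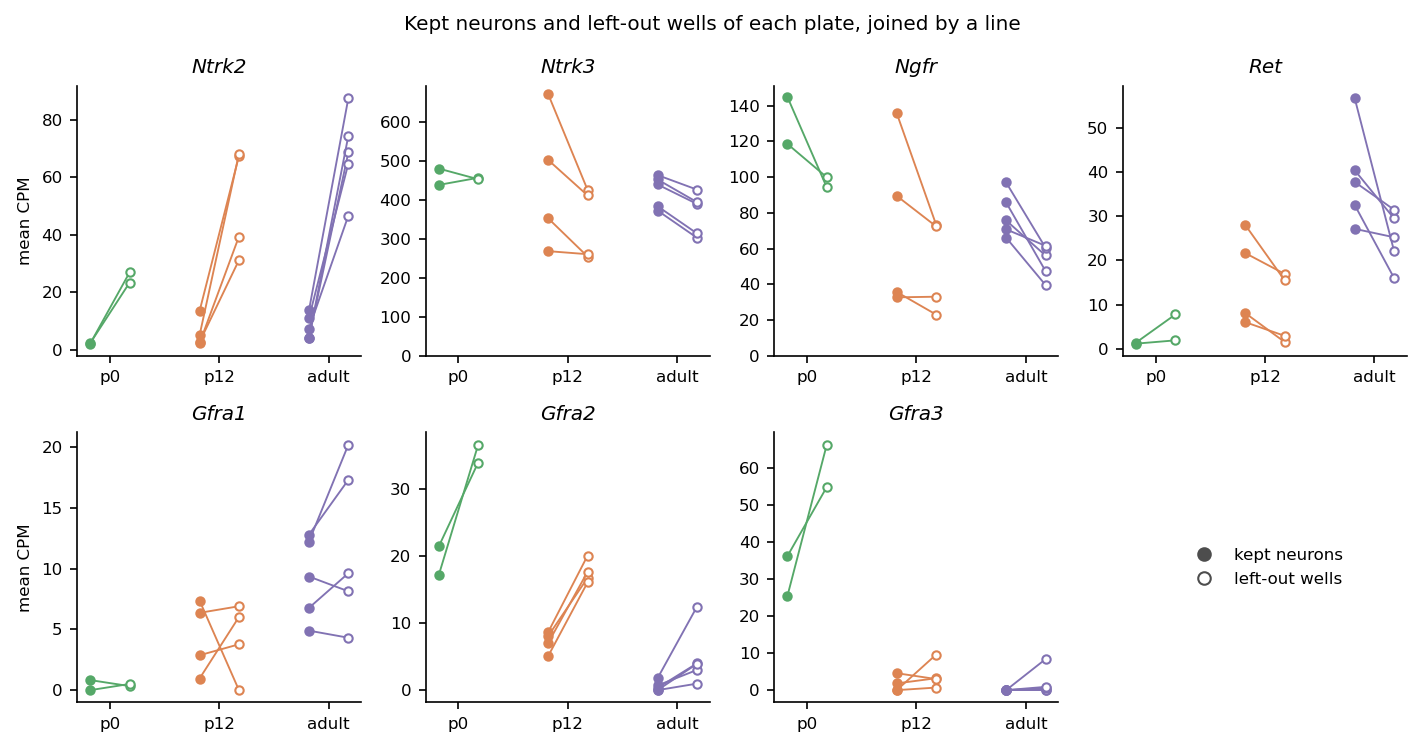
Mean CPM of the 7 receptors in kept neurons and in wells left out for satellite cell genes, for adult, p12 and p0, each point a plate and lines joining the values of a plate. Ntrk2 is higher in left-out wells on all 11 plates, while Ntrk3 and Ngfr are lower there on all plates but 1 each.

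Of 50 other genes of these pathways found in the files, fixed as lists of ligands, co-receptors, adaptors and response genes, 35 could be tested between stages. At p0 against e14.5, 6 were called higher and 6 lower, beside 27.8% of all genes called in either direction. Spry4 (-4.31, SE 0.65, adjusted p = 0.000360) and Spry2 (-3.18, SE 1.06, adjusted p = 0.0372), which dampen receptor kinase signalling, were lower, and the immediate early gene Egr1 (+2.23) and the co-receptor genes Sort1 (+1.26) and Sorcs1 (+1.34) were higher. The adaptor gene Dok5, whose product binds Ret and TrkC, was lower (-1.61, SE 0.49, adjusted p = 0.0238). The median of the list was +0.09, beside +0.01 for all genes.

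At p12 against p0, none of the 35 was higher and 4 were lower, beside 18.1% of all genes called, namely Ncam1 (-2.84, SE 0.25, adjusted p = 6.64e-06), which can bind GDNF with Gfra1, Dok4 (-1.07), Etv1 (-0.78), an ETS factor of proprioceptors, and Grb2 (-0.64). The list median was -0.49, beside +0.02 for all genes. In the adult against p12, 3 were higher and 4 lower, beside 14.1% of all genes. The neurturin gene Nrtn rose by +2.14 (SE 0.57, adjusted p = 0.0218) while its co-receptor gene Gfra2 fell, and Bdnf (-0.91, SE 0.28, adjusted p = 0.0426), Sorcs2 (-2.005), Ncam1 (-0.87) and Bex3 (-0.98), which codes for a partner of the protein of Ngfr, were lower.

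In left-out wells against kept neurons, 35 listed genes were tested, of which 8 were higher and 1 lower in the adult, 5 higher at p12 and 3 higher at p0, beside 15.3%, 8.31% and 2.73% of all genes called. Ncam1, Egr1 and Fos were higher at all 3 stages, in the adult by +2.55, +2.48 and +2.01, and Dusp6, a phosphatase of ERK, by +4.71 in the adult (SE 0.47, adjusted p = 2.22e-08), beside the glial sums given above.

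Between clusters, 21 of the 50 could be tested in the adult and at p12. In adult cluster 1, 2 were called higher beside 5.69% of all genes, Rtn4r (+2.203, SE 0.41, adjusted p = 0.00157), whose product can pair with that of Ngfr, and Dok5 (+1.41, SE 0.40, adjusted p = 0.0413). In cluster 5, with 4.03% of all genes called, it was Sorcs3 (+3.41, SE 0.62, adjusted p = 0.00160), and in clusters 1 and 5 against 2 to 4, with 5.63% called, Ncam1 was lower (-1.19). At p12, the adaptor gene Shc4 was higher within plates in both clusters with high Ntrk3 and Ret, by +7.09 in cluster 2 over cluster 3 (SE 1.43, adjusted p = 0.00378) and by +5.13 in cluster 5 over clusters 1 and 4 (SE 0.95, adjusted p = 0.000964), beside 3.91% and 6.88% of all genes called. Spred1 was also higher in cluster 2 (+1.402) and Bex3 lower in cluster 5 (-0.66). At p0, Spred1 was the only listed gene called in cluster 2 (+2.69, SE 0.49, adjusted p = 0.00669, 1 of 18 tested beside 1.21% of all genes). At e14.5, 17 were tested. Etv1 was lower in clusters 3 and 4 (-3.51, with 1.18% of all genes called). That contrast was set because the study describes these clusters as low in Etv1, so the call is no independent evidence. Spry2 was lower in cluster 1 than in cluster 2 (-2.57, with 2.65% called).

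The genes most like each receptor across the 17 clusters were ranked by Pearson's r on log2(CPM + 1) levels over 9020 genes, as a description, since the clusters of a stage share plates and depth. Ntrk3 was most like Pcdh9 (r = 0.86), Pdrg1 (0.85) and Calb2 (0.84), the calretinin gene, and Ret was most like Metap2 (0.95), Osbpl9 (0.92) and Kcnip1 (0.92). Ngfr followed Grip1 and Gria2 (each 0.81) and Ntrk2 followed Exoc6b (0.86), Mat2a (0.81) and Bcan (0.77). Gfra1 was most like Ntng1 (0.90), Gfra2 like Acat1 and Shroom2 (both 0.88) and Gfra3 like Kars (0.95), Cd24a (0.94) and S100a11 (0.94). Among the members themselves, Ntrk3 and Ngfr were the most alike (r = 0.56), Ret had r = 0.48 with both Gfra1 and Ntrk2, and Ret and Gfra3 were the most opposed (r = -0.70).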

How the data were processed

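Wells held 1 sorted cell each. Per the submitters' notes and the study's methods, the authors aligned reads with STAR to mm10 and deposited raw UMI counts per gene and well, with a list of kept neurons and their clusters, which were called with no batch correction. Strand is not given in the sources used here, and counts are not corrected for gene length, so levels are not compared between genes. The receptors and gene lists were chosen with earlier results of these data known.

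Here UMIs were summed over the kept neurons of a plate, or of a cluster on a plate with at least 2 of its neurons, and fitted over all genes in R 4.3.3 by the quasi-likelihood test of edgeR 4.0.16, after TMM scaling and its filterByExpr filter, with a call at a Benjamini-Hochberg adjusted p below 0.05. Stages shared 1 fit, as did clusters of a stage, and the fit of left-out wells against kept neurons had plate as a block, since both sums come from the same plate. Adjacent contrasts share the stage between them. Detection was compared after thinning to 7000 UMIs (seed 1), with an exact permutation test in scipy 1.17.1. A count of 0 was given the limit of 3 counts, which covers counting error only. Alternatives were DESeq2 1.42.0, its size factors, no filter, each plate left out, plate as a block, other minimum neurons, thinning, other sets of neurons and all wells with at least 2000 genes. The contrasts within p12 plate pairs, the fits on plate subsets and the comparison of left-out wells between stages were added after seeing the data. The fits were tested on simulated data.

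All 7 receptors are named. Of the pathway genes, those called were named by the size of the log2 difference, at most 8 in a contrast, and for each receptor the 3 genes of highest Pearson's r with at least 20 CPM in some cluster were ranked. A few genes that these rules or the marker lists include are not reported here.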

Additional observations from a re-analysis of the deposited data

Results flagged for a closer look

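In 43 groups of 4 or 5 plates, the highest or lowest plate was compared with the others, and 5 plates stood apart by Dixon's criterion. Chance flags about 1 in 20 groups. Ntrk2 in adult cluster 3 was 28.7 CPM on replicate 2, from 1 UMI in 2 neurons, far above the other 3 plates of that cluster. Ngfr in adult cluster 1 was 131 CPM on replicate 3, above the other 4 plates. Gfra2 in the left-out adult wells was 12.4 CPM on replicate 1, and in adult cluster 5 it was 1.34 CPM on replicate 2, from a single UMI, with the other plates at 0. Gfra3 in the left-out adult wells was 8.37 CPM on replicate 5, although no kept adult neuron had a UMI of it.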

How the results depend on the processing

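No called receptor changed direction under any alternative run. Between stages, 5 receptor calls became 1 after thinning to 7000 UMIs, when only 4 of the 7 receptors passed the filter, 8 over all wells with at least 2000 genes, 10 without p12 replicates 1 and 2, and 3 to 8 with a plate left out. Between adult clusters, 6 calls became 2 after thinning, both of Ntrk3, the 1 of 3 receptors still tested, 3 to 5 with a plate left out and 7 with plate as a replicate block. Between p12 clusters, 10 became 6 after thinning, with 2 of 3 receptors still tested and Ret not, and 5 to 10 with a plate left out. Between left-out wells and kept neurons, 13 became 7 with DESeq2, 4 with no replicate block and 10 to 13 with a plate left out. Beyond the receptors no longer tested, the cause of these changes was not tested. The p0 and e14.5 clusters gave 0 calls under every alternative, with the replicate block too. Leaving out a p0 or e14.5 plate left no residual degrees of freedom in the cluster fits, and for p12 clusters against all others no block could be fitted. At full depth the joint detection differences, adult minus p12, were 14.9 percentage points for Gfra1 and -19.8 for Gfra2.

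Counts of called genes moved by more than 1.5 times. They ran from 1455 to 4114 at p0 against e14.5 (3314 in the fit reported), 641 to 3102 at p12 against p0 (2162) and 529 to 3070 in the adult against p12 (1687). For adult clusters 1 to 5 they ran from 70 to 930 (419), 0 to 196 (2), 0 to 521 (7), 34 to 504 (201) and 26 to 547 (297), and for clusters 1 and 5 from 59 to 781 (415). For p12 clusters 1 to 5 they ran from 391 to 1627 (1410), 169 to 1314 (1301), 151 to 843 (763), 88 to 736 (409) and 13 to 543 (336). Within p12 plate pairs they ran from 3 to 237 (60) for cluster 4, 21 to 613 (427) for cluster 5 and 32 to 291 (243) for cluster 2. They ran from 11 to 161 (61) at p0, 32 to 114 (58) and 62 to 173 (130) at e14.5, 704 to 1421 (1417) for the adult plate sets, and 734 to 2146 (1931), 499 to 1125 (1050) and 111 to 419 (345) for left-out wells. Thinning or a left-out plate gave most of the lowest counts.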

Other observations

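The 111 wells with fewer than 2000 genes held 100175 UMIs together. Ntrk3 had 29 of these in 22 wells, a pooled level of 289 CPM. Ntrk2 had 8 UMIs in 5 wells, Ngfr 7 in 5, and Ret and Gfra3 2 each, and Gfra1 and Gfra2 had none.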
